A study of Homo sapiens with 8 samples.

Results

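Long single-exon differential m6A peaks were stretches of RNA that lay in a single unbroken block of at least 600 nt and whose N6-methyladenosine (m6A) signal differed between METTL3-silenced and control retinal pigment epithelium cells. They were chosen by measured values, namely the block number of 1 and the block size in the authors' deposited table of differential peaks, and 212 of its 1262 peaks met the rule (16.8%, 95% Wilson interval 14.8% to 18.96%; this interval and all others below cover counting error alone). The 212 peaks belonged to 202 Ensembl gene IDs. The reference was the 598 shorter single-block peaks of the same table, and the remaining 452 peaks had several blocks. ARPE-19, an established human retinal pigment epithelium line, carried a lentiviral short hairpin RNA against METTL3 (shMET+LPS) or a negative control hairpin (shNC+LPS). Both groups received lipopolysaccharide (LPS) at 1 μg/ml for 24 h, so no group without LPS enters the comparison. Each group had 3 libraries of RNA pulled down with an m6A antibody (IP) and 1 library of RNA that was not pulled down (input). The libraries of a group were already combined in the table, so the depth and the spread between replicates are unknown, no value per library can be shown, and nothing was tested between the groups.

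METTL3 is the catalytic subunit of the nuclear complex that writes m6A on messenger RNA, in which METTL14 helps to bind the RNA and WTAP places the complex in the nucleus. In mammalian transcripts m6A is known to lie mostly in long internal exons and in last exons around the stop codon, and exon junction complexes are known to keep short internal exons free of it. A long uninterrupted exon is therefore a typical place for a broad m6A peak. Fold enrichment is the ratio of IP over input at a peak, and the log2 fold change compares m6A between the groups. Which group stands on top of that ratio is not written in the table. Negative values were taken to mean lower m6A in shMET+LPS, since 14 of the genes that had been picked for verification as losing m6A had 17 listed peaks and every one of them was negative. The direction of these 14 genes is therefore no finding. The study also reports a lower m6A content of RNA in METTL3-silenced cells of this line. Among the genes common to its m6A and RNA sequencing, it counts more with lowered than with raised m6A. Of all 1262 listed peaks, 910 had negative values. The sign itself was not tested, and with the opposite sign all directions below would be reversed.

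Sequence could be shown for the few long peaks that reached into the windows of 250 bases before to 50 bases after RefSeq transcription start sites (GRCh38.p14). Of the 212 long peaks, 14 shared bases with such a window on either strand. The letters GGAC, the core of the most common m6A sequence context, were searched on the strand of the peak, and GGACT, which overlaps it, was counted as well. GGAC occurred in the shared part of 7 peaks and GGACT in that of 2 peaks. Among the 7, ENSG00000058673 and ENSG00000257315 hold the same GGAC in the same window and are not separate stretches. NUMA1, which encodes a spindle organiser, carried the widest of the long peaks, and this window of a start site on the other strand lay wholly inside it (chr11:72014041-72014340, minus strand). The capitals mark GGAC in all the sequences shown.
NUMA1: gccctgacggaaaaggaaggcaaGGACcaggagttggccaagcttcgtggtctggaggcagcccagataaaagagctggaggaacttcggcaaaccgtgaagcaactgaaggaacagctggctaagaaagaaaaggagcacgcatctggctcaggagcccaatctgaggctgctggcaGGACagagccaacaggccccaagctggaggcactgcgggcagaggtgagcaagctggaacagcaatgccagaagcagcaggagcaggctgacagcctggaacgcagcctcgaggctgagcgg
The 300 bases held GGAC 2 times. Over all 35116 start-site windows, 66.1% held GGAC on the strand opposite to the gene and 66.3% on its own strand, so a match in a window of this length was common. Shorter stretches of 30 bases around the match are given for SLMAP, a membrane-anchored scaffold gene whose peak had higher m6A, and for RASA1, RARRES2, which encodes chemerin, and IRF3, a transcription factor gene of the interferon response, whose peaks had lower m6A. They lay at chr3:57757111-57757140 and chr3:57757165-57757194 (plus strand, SLMAP), chr5:87268691-87268720 (plus strand, RASA1), chr7:150341626-150341655 (minus strand, RARRES2) and chr19:49664935-49664964 (minus strand, IRF3).
SLMAP, upstream match: tcactccgggcgaGGACtggcggtggctgc
SLMAP, downstream match: cttcggcccaaaaGGACtttcctggccgcg
RASA1: actggggggagctGGACtgacagggggagg
RARRES2: agcgggaagaggcGGACagcgaggccaaga
IRF3: aaatatgggtgaaGGACctgtgccgtggcc
The SLMAP peak shared 218 bases with its own start-site window, and both matches there continued as GGACT. Of all windows, 19.3% held GGACT in the same 218 bases. RASA1 encodes a Ras GTPase-activating protein, and its peak also held 1 GGACT in 218 shared bases, against 18.6% of windows. In the 95 bases that the RARRES2 peak shared with its window GGAC occurred 2 times, and 31.4% of windows held it there. This peak began upstream of the RARRES2 span, and the match shown lies in that upstream part. The other match, in chr7:150341598-150341627, lies inside the span. A match describes these letters and shows no methylated base.

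The long peaks were wide and strongly enriched. Their median width was 840 nt (95% order-statistic interval 809 to 901 nt, range 600 to 2997 nt), beside 330 nt for the shorter single-block peaks, a difference that the rule itself makes. In the authors' deposited table the long peaks had a median fold enrichment of 25.7 (95% order-statistic interval 21.5 to 28.7) and the shorter ones of 5.71 (5.32 to 6.56). A fold enrichment of 10 or more was listed for 179 of the long peaks (84.4%) and for 183 of the shorter ones (30.6%). Width and enrichment thus went together in the table. Across the 810 single-block peaks the Spearman rank correlation between them was 0.74, and within the long peaks it was 0.19. Both values come from the same peak calling and from peaks that are not independent, so they describe the list. The p-value of the peak itself was given as 0 for 73 long peaks (34.4%) and for 17 shorter ones (2.84%).

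**Figure D1:**
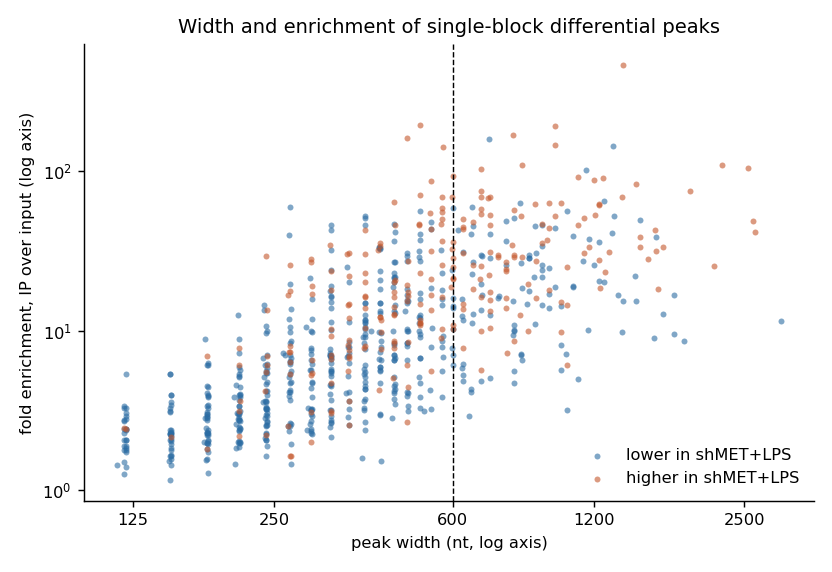
Fold enrichment of IP over input (log axis) against peak width in nt (log axis) for the 810 single-block peaks, 1 point per peak, coloured by direction; the dashed line marks 600 nt. The 212 points from 600 nt upward have a median fold enrichment of 25.7 and those below it 5.71, and few long peaks lie under a fold enrichment of 5.

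Lower and higher m6A were about equally frequent among the long peaks. In METTL3-silenced cells m6A was lower at 108 of them and higher at 104, a share of lower peaks of 50.9% (95% Wilson interval 44.3% to 57.6%). Of all 1262 peaks listed, 72.1% were lower, and among the shorter single-block peaks 461 of 598 were (77.1%, 73.6% to 80.3%). All of these peaks come from the comparison that the table was selected on, and the difference was not tested. The listed changes were also smaller. Their sizes cover only peaks that passed the q-value limit of the table, so the sizes over all peaks of each length are unknown. Lower long peaks had a median log2 fold change of -1.24 (95% order-statistic interval -1.34 to -1) in the authors' deposited table and lower shorter ones of -1.87, that is, 42.3% and 27.4% of the control level. Over the higher peaks it was 0.90 for the long ones (0.79 to 1.11) and 1.90 for the shorter ones, a 1.87-fold and a 3.73-fold level. A log2 fold change of 1 or more in size was listed for 77.3% of all peaks and for 111 long peaks (52.4%). The q-value of the comparison was 0.01 or less for 68.5% of all peaks and for 151 long peaks (71.2%).

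**Figure D2:**
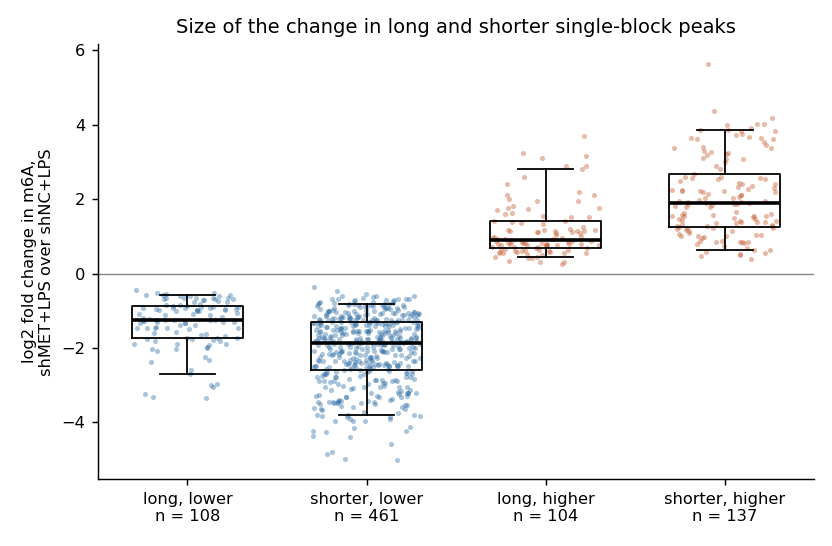
Log2 fold change in m6A of single-block peaks, shMET+LPS over shNC+LPS, by length and direction; each point is a peak, the box spans the quartiles with the median as a thick line, and the whiskers reach from the 5th to the 95th percentile. The medians are -1.24 and -1.87 for long and shorter lower peaks, and 0.90 and 1.90 for long and shorter higher peaks.

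The share of lower peaks went down with width below the limit of the rule and showed no further order above it. It was 95.1% (95% Wilson interval 89.1% to 97.9%) of the 103 single-block peaks under 200 nt and 65.3% (58.3% to 71.7%) of the 190 peaks from 400 nt to under 600 nt. Among the long peaks it was 47.0% (36.6% to 57.6%) from 600 nt to under 800 nt, 57.6% (47.0% to 67.6%) from 800 nt to under 1200 nt and 45.5% (31.7% to 59.9%) from 1200 nt upward. These intervals overlap one another. The size of the change kept decreasing within the long peaks, with a median log2 fold change of the lower peaks of -1.38, -1.24 and -0.91 in the same order of width. For the higher long peaks the medians were 1.16, 0.90 and 0.76. The 10 peaks just inside the limit, of 600 or 601 nt, had a median fold enrichment of 21.3 and 4 of them were lower. The 10 peaks just outside, of 595 to 599 nt, had a median of 16.3 and 5 of them were lower. The fold enrichment ranged from 6.07 to 93.1 inside and from 7.06 to 68.3 outside, and the difference was not tested. The PRRC2B peak of 601 nt and the LOC124902290 peak of 597 nt share 597 bases, so this stretch stands on both sides of the limit. KMT2C, AFF1, SLIT3, 1 peak of ANKRD11 and ENSG00000131797 lay at 600 nt exactly, with log2 fold changes of 1.15, -1.11, -1.47, -1.69 and 2.1. Just outside at 599 nt lay SEMA7A, TPGS2, PHRF1, RUSC2 and 1 peak of COL8A2, with log2 fold changes of 0.55, 2.18, -1.34, -1.03 and -2.60.

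**Figure D3:**
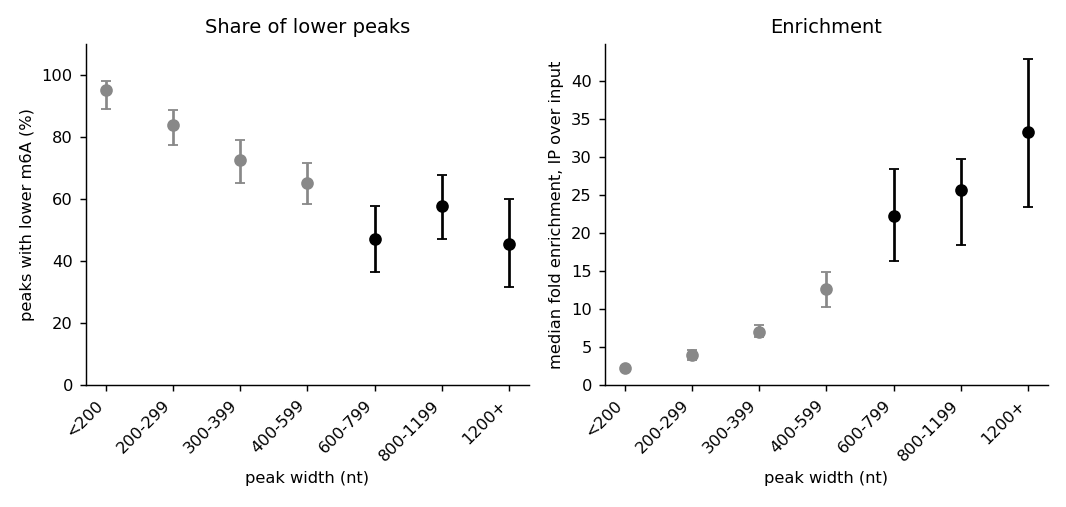
Share of single-block peaks with lower m6A in percent (left, with 95% Wilson intervals) and their median fold enrichment of IP over input (right, with 95% order-statistic intervals) by peak width in nt; black points are the long peaks and grey points the shorter ones. The share is 95.1% under 200 nt and between 45.5% and 57.6% from 600 nt upward, while the median enrichment rises from 2.31 to 33.3.

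To set peaks of like enrichment side by side, the single-block peaks were divided at the quartiles of their fold enrichment. Between 3.65 and 8.18, 17 of 21 long peaks were lower (81.0%, 95% Wilson interval 60.0% to 92.3%) and 149 of 181 shorter ones (82.3%, 76.1% to 87.2%). From there to 20.7 the shares were 65.2% (53.1% to 75.5%) of 66 long peaks and 66.2% (57.9% to 73.6%) of 136 shorter ones. Above 20.7, where 123 of the long peaks lay, they were 37.4% (29.4% to 46.2%) and 48.8% (38.1% to 59.5%). That range has no upper limit, so long and shorter peaks were not matched for enrichment within it. None of these differences was tested. The median log2 fold change of the lower peaks above 20.7 was still -1.24 for the long and -2.39 for the shorter peaks, and that of the higher peaks 0.92 and 2.21. Enrichment and direction were linked within the long peaks as well, with a median fold enrichment of 17.3 over the lower and 31.3 over the higher ones. All 8 long peaks with a fold enrichment under 5 were lower, and 8 of the 11 at 100 or more were higher. Among the shorter peaks, 241 of 263 under 5 were lower and all 3 at 100 or more were higher. The part that enrichment plays in the direction was not tested.

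Among the long peaks, the largest fall belonged to SIGLEC15, a sialic acid-binding immune receptor gene, with a log2 fold change of -3.35 at a peak of 810 nt. MUC6, which encodes a gel-forming mucin, followed with -3.31 and TLR4, the receptor for LPS itself, with -3.23. The TLR4 peak was 930 nt wide and 34.1-fold enriched, and its m6A was listed at 10.7% of the control level with a q-value of 0.0288. PMS2, a DNA mismatch repair gene, had -3.05. CAMK2B and CAMK2A encode subunits of the same calcium/calmodulin-dependent kinase and had -3.00 and -2.96. Over these 6 falls the q-value was between 0.000105 and 0.0288, so the steepest changes did not have the smallest q-values. The steepest rise of a long peak was at ZNF616, a zinc finger gene, with a log2 fold change of 3.69, and MAP3K13, a kinase upstream of JNK, had 3.25. RPAP2, which encodes a phosphatase of RNA polymerase II, had 3.15. The next were ENSG00000273270, which had no single gene name (3.10), and the noncoding RNA genes FTX (2.90) and LINC01119 (2.89). Their q-values lay between 0.0117 and 0.0275.

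The 5 smallest q-values went with small changes. Steeper changes also had very small q-values, at RARRES2 (-1.31, 1e-20), HNRNPU (-1.48, 1.26e-20) and AKAP12 (-2.25, 2e-20). NEAT1, the noncoding RNA that builds nuclear paraspeckles, was listed with a peak of 2633 nt that was 41.5-fold enriched and had a log2 fold change of 0.32 with a q-value of 5.01e-52. A nearly identical NEAT1 peak of 2608 nt was listed beside it. DOCK5, which encodes an activator of Rac, had a log2 fold change of 0.86 (q-value 5.01e-31), and the receptor gene NOTCH2 had 0.70 (1e-30). The NUMA1 peak of 2997 nt was the widest of all long peaks and had -0.70 (6.31e-26). The other wide ones were at ZNF451, which encodes a SUMO ligase, with 2548 nt, and at KLHL9, a substrate adaptor of a cullin ubiquitin ligase, with 2243 nt. In all, 21 long peaks were at least 1500 nt wide, 8 lower and 13 higher. By enrichment, GJC1, which encodes a gap junction connexin, led with a 462-fold enriched peak, whose log2 fold change was 0.76. LOC130494219 (192), LINC01119 (169), PPM1D, a phosphatase gene of the DNA damage response (158), and ZNF100 (145) followed. Of these 5 most enriched peaks only that of PPM1D was lower, at -1.76.

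The long peaks were also counted in hand-made gene lists. These do not hold every gene of a theme, their counts are small, and none was tested, so their long peaks are to be read beside the 108 lower and 104 higher long peaks in all, and their listed peaks beside the 910 lower ones among all 1262. Of 36 genes of LPS sensing and NF-kB signalling, 4 had any listed peak and only TLR4 a long one. Outside the list, the immune signalling genes IRF3 (-2.60) and TRAF3IP2 (-0.55) had lower long peaks and MAVS (0.52) and CARD6 (1.74) higher ones. These were named after their values were seen. Of 51 genes of cytokines, chemokines and their receptors, 4 were listed and 2 had a long peak in opposite directions. LIF, a cytokine of the interleukin-6 family, had a peak of 1165 nt with a log2 fold change of -0.45, and IL6ST, the signalling receptor that LIF shares with interleukin-6, had a 109-fold enriched peak at 0.92 (q-value 4.68e-07). LIF had the smallest fall of all 108 lower long peaks. Of those 14 verification genes 4 had a long peak, and these were MAP1B, NR2F1, LIF and TLR4. NR2F1 encodes an orphan nuclear receptor that acts as a transcription factor. Its long peak lay at chr5:93593567-93594495 on the plus strand, 116 bases from the 3′ end of the gene span, was 929 nt wide and 46.0-fold enriched, and had a log2 fold change of -0.57 (q-value 8.91e-05), that is, 67.2% of the control level. The second listed NR2F1 peak had 2 blocks and was 3.63-fold enriched with -1.19. So the broad, strongly enriched peak of NR2F1 changed less than its small one.

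Among 37 nuclear receptors and coregulators, 9 had a listed peak and 2 a long one, NR2F1 and the histone methyltransferase gene NSD1 (1.13). Of 154 other transcription factors, 24 had a listed peak and 5 a long one, of which 3 were lower and 2 higher. Of their 27 listed peaks 13 were lower (48.1%, beside 72.1% over all listed peaks). The proto-oncogene MYC had a log2 fold change of 0.88 (q-value 3.16e-19) and SOX4 had 0.97, whereas the immediate early gene JUN had -0.57, NFE2L1, an activator of proteasome genes, -0.53 and FOXN3 -0.74. Transcription factor genes outside the list, given with their values known, included IRF3 (-2.60), HIC1 (-1.25) and GATA6 (-0.98) among the lower ones. Among the higher ones were OTX2 (0.99), NFE2L3 (0.82) and RFX7 (0.56). Chromatin regulators in the list had 24 peaks, of which 16 were lower (66.7%, beside 72.1% over all listed peaks), and of the 6 long ones 5 were higher and 1 was lower. Outside the list, the chromatin-related genes ANKRD11 (-1.69 and -1.74), SPEN (-0.97) and H1-10 (-0.70) had lower long peaks and PWWP2A (1.11), SUPT7L (1.17) and PHF3 (0.49) higher ones, so the count depends on the genes listed. All of these but ANKRD11 were named after their values were seen. The higher ones had similar sizes, with a log2 fold change of 1.15 at KMT2A and 1.15 at KMT2C, both histone H3 lysine methyltransferase genes, 1.14 at TRRAP, which encodes a scaffold of acetyltransferase complexes, 1.13 at NSD1 and 1.18 at ARID2, which encodes a subunit of a remodelling complex. HCFC1, a host cell factor of transcription, was the lower one with -1.44.

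ZNF-named zinc finger genes had 26 listed peaks in 24 genes, 9 of them lower and 17 higher (34.6% lower, beside 72.1% over all listed peaks), and of their 10 long peaks 8 were higher and 2 lower, with a median log2 fold change of 1.46. Many such genes carry the whole zinc finger array in a single long last exon. Besides ZNF616, ZNF451 and ZNF100, the higher ones included ZNF12 (1.71), ZNF622 (1.83), ZNF780B (1.39) and ZNF780A (1.76). ZNF768 (-1.75) and ZNF629 (-0.84) were the lower ones, and ZNF629 was named after its value was seen. Neighbouring genes of this family are similar in sequence, and reads that fit several of them may have been placed on either.

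Genes of matrix, adhesion and cytoskeleton had 57 listed peaks in 31 genes, 51 of them lower (89.5%, beside 72.1% over all listed peaks), and 10 long peaks in 7 genes, 6 lower and 4 higher. Lower m6A was listed at the cytoskeletal linker genes MAP1B (-0.65, q-value 2.51e-25), AHNAK (-0.51) and PLEC, which had 2 long peaks at -0.68 and -0.65, and at the membrane-bound matrix protease gene MMP14 (-0.996, q-value 6.31e-20). The higher ones were the pairs of peaks of COL8A1, a collagen gene (0.25 and 0.57), and of FAT1, a giant cadherin gene (0.56 and 0.43). Genes of these kinds outside the list, given with their values known, included COL8A2 (-2.37) and TPM1 (-0.59) among the lower and LTBP2 (0.41) and VEZT (0.81) among the higher ones. Over the 10 long peaks of the list the median fold enrichment was 12.2. Of 32 genes of tight junctions and polarity, 4 had 5 listed peaks, and none of these was long.

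Growth factor, TGF-beta, Notch and Hippo genes had 19 listed peaks, 11 of them lower (57.9%, beside 72.1% over all listed peaks). Of their 6 long peaks 5 were higher and 1 was lower. MAML2, a coactivator of Notch, had 2 long peaks at 0.86 and 1.05, SKIL, a repressor of TGF-beta signalling, had 0.62 and LATS2, a Hippo kinase gene, had 0.63. With NOTCH2 these made up the higher ones. VEGFA, which encodes the vascular growth factor that this epithelium secretes, was lower with -1.20 at a 48.7-fold enriched peak. It was also 1 of the 2 long peaks among 10 listed genes of stress response, glucose and hypoxia, beside MDM2, a ubiquitin ligase gene (0.58, q-value 2.51e-09). Of 82 ubiquitin ligase and deubiquitinase genes 14 were listed with 16 peaks, 6 of them lower (37.5%, beside 72.1% over all listed peaks). The 3 with a long peak, MDM2, BTBD3 (0.92) and KLHL9 (0.75), were higher. Of these only MDM2 encodes a ligase itself, and BTBD3 shares the BTB domain of the adaptor KLHL9. BTB-domain genes outside the list went both ways. They included KCTD2 (-1.11) and KCTD14 (-1.24) among the lower ones, ZBTB38 (0.76 and 0.66) among the higher ones, and KBTBD11 with both directions. Outside the list, the ubiquitin ligase gene RNF168 (-2.33) had a lower long peak, the deubiquitinase genes USP10 (0.79) and BRCC3 (1.35) had higher ones, and RNF139 had both directions. All of these genes outside the list but RNF139, KBTBD11 and ZBTB38 were named after their values were seen.

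Of 25 genes for m6A writers, erasers and readers 2 were listed, each with a long peak. WTAP, the regulatory subunit of the writer complex, had a 68.6-fold enriched peak of 721 nt with a log2 fold change of 2.20 (q-value 0.00132). This peak began upstream of the WTAP span, and most of its bases lay outside that span. It shared 99 bases with the start-site window of WTAP, all of them before the start site. With the window of SOD2 on the other strand it shared 65 bases. Whether the signal came from WTAP messenger RNA was not tested. The reader gene PRRC2A had -1.24 (8.91e-06). MAT2A, named after its value was seen, encodes the enzyme that makes S-adenosylmethionine, the methyl donor of the reaction, and had 1.59 (1.15e-07). Among 22 long noncoding RNAs 5 were listed and 3 had long peaks, NEAT1, FTX and NORAD (0.64, q-value 3.16e-24), and their 4 long peaks, of which the 2 at NEAT1 are nearly the same stretch, were higher. The list also had 5 shorter single-block peaks, 3 of them at NEAT1 and none at FTX or NORAD, and these were lower. Over all long peaks in genes named by position as long noncoding RNAs 3 were lower and 7 higher, and such a name may be a neighbour's. The 7 include the 2 NEAT1 peaks, and 1 of the 3, at NUMA1-AS1, shares all its 1610 nt with the NUMA1 peak. Of 55 genes with no or nearly no intron, 9 had 14 listed peaks and 4 had long ones, NEAT1, JUN, SOX4 and KLHL9.

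**Figure D4:**
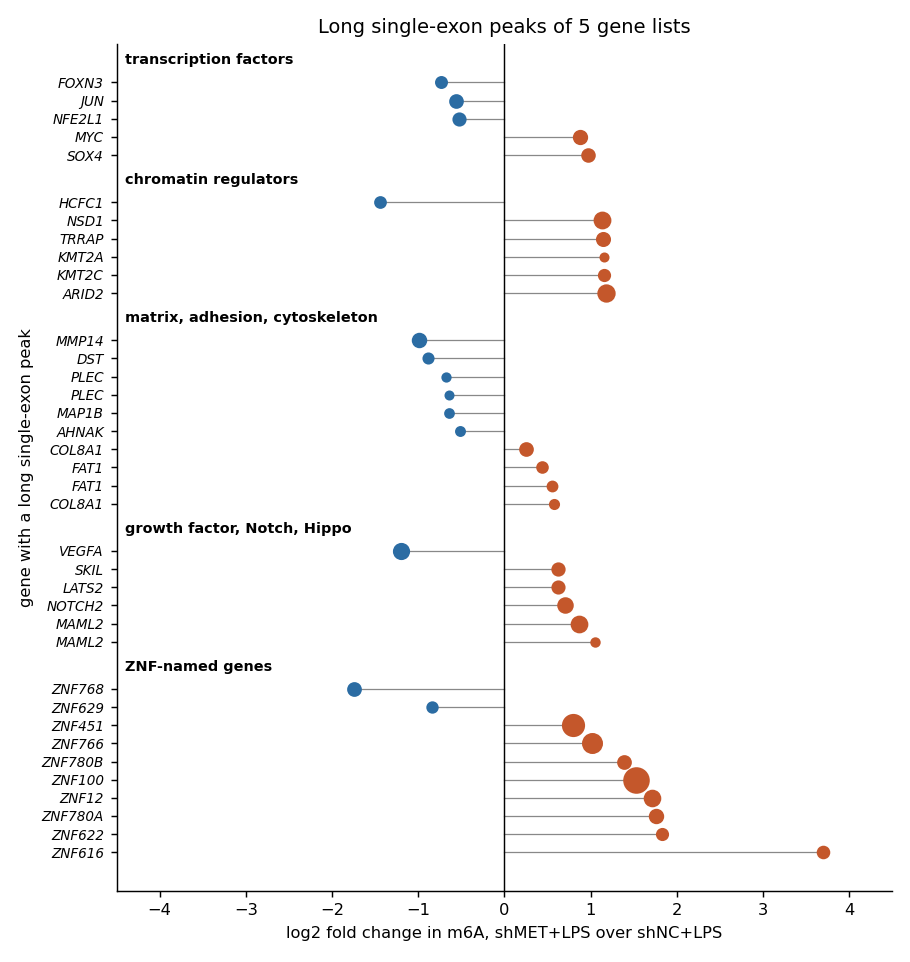
Log2 fold change in m6A, shMET+LPS over shNC+LPS, of every long single-exon peak in 5 of the gene lists; blue points are lower, orange points are higher, and more enriched peaks have larger points. Above 0 lie 5 of 6 peaks of the chromatin regulators, 8 of 10 of the ZNF-named genes and 4 of 10 of the genes of matrix, adhesion and cytoskeleton, beside 104 of all 212 long peaks.

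Several genes held more than 1 listed peak. Of the 202 gene IDs, 10 had 2 long peaks and none had more. In 8 of these 10 both long peaks moved the same way, which at NEAT1 was given beforehand, since its 2 long peaks share 2608 bases. They were AKAP12, a scaffold of protein kinase A (-2.25 and -1.29), ANKRD11, a chromatin cofactor gene (-1.69 and -1.74), PLEC, COL8A1, FAT1, MAML2, NEAT1 and ZBTB38, a methyl-CpG-binding zinc finger gene (0.76 and 0.66). KBTBD11 had -0.71 and 1.33, and RNF139, a ubiquitin ligase gene of the endoplasmic reticulum, had 0.72 and -1.17, at neighbouring peaks. The lower KBTBD11 peak had a q-value of 0.049, close to the largest listed one of 0.0501. At RNF139 the q-values were 0.00661 and 0.0148. Opposite changes were thus listed within the same gene. Long and other peaks were listed together for 32 gene IDs, and the long ones were the more enriched in 28 of them. Counting every ID with a long peak and more than 1 listed peak, 18 of 36 had only lower peaks, 7 only higher ones and 11 both. In 8 of these 11 the long peak was higher and the others were lower, and only NFE2L1 had the reverse. In the whole table, 104 of the 212 long peaks were higher, while 77.1% of the shorter single-block peaks and 75.4% of those with several blocks were lower. The count is to be read beside these shares and was not tested. At NEAT1 the 3 short peaks of 181 to 481 nt had log2 fold changes of -1.08, -1.15 and -1.07 beside the 0.32 of the broad peak. KMT2A had 1.15 at its long peak and -1.29 at one of 331 nt nearby, LATS2 had 0.63 and -2.56, and LTBP2, a matrix gene, had 0.41 and -1.29. CFLAR, PRRC2B, FAT1 and DBNL were the remaining ones. This set was put together after the values were seen.

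Position in the gene was not part of the rule. Names and spans could be given to 202 of the 212 long peaks, and 88 of these ended within 3000 bases of the 3′ end of the gene span (43.6%, 95% Wilson interval 36.9% to 50.5%), beside 292 of 583 shorter peaks (50.1%, 46.0% to 54.1%). Within 1000 bases the shares were 20.3% and 28.0%. Of the 105 lower and the 97 higher long peaks, 43.8% and 43.3% ended within 3000 bases, and 23.8% and 16.5% within 1000 bases. At the other end, 26 long peaks (12.9%) began within 1000 bases of the 5′ end of the span, beside 102 shorter ones (17.5%). There 15 long peaks were lower and 11 higher, and 99 shorter peaks were lower and 3 higher. Over all peaks with a named gene, 105 long ones were lower and 97 higher, and 452 shorter ones were lower and 131 higher. None of these differences was tested. The long peaks near the 5′ end belonged to genes such as HNRNPU, TPM1, VEGFA, NORAD and SOX4. Another 43 long peaks (21.3%) lay over 10000 bases from both ends, as in DST, NSD1, KMT2C and AHNAK, beside 96 shorter ones (16.5%). The long peaks near the 3′ end and the farther ones had similar values, with a median fold enrichment of 27.0 and 24.2 and lower m6A in 52.3% and 51.8%. The exons themselves, stop codons and untranslated regions were not analysed here, so the name single-exon rests on the block number alone.

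**Figure D5:**
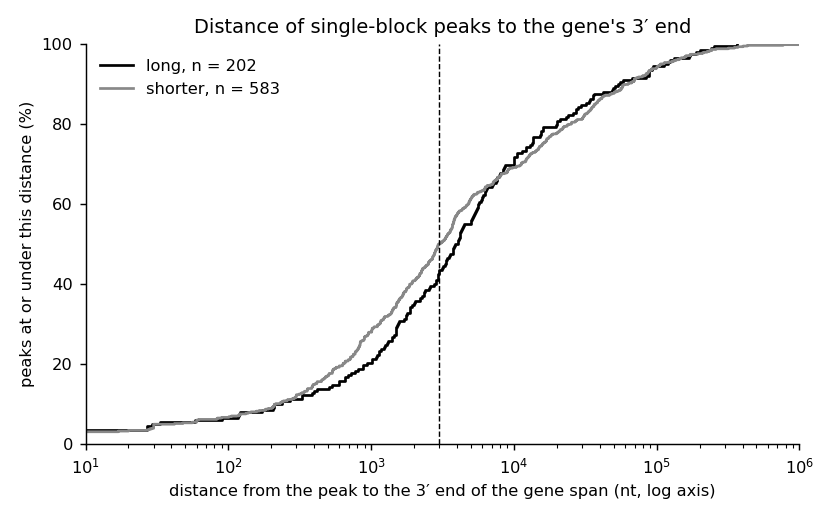
Cumulative share in percent of single-block peaks by their distance in nt (log axis) from the peak to the 3′ end of the gene span, for 202 long and 583 shorter peaks with a named gene; the dashed line marks 3000 nt, and distances under 10 nt enter at the left edge. At 3000 nt the curves are at 43.6% and 50.1%.

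Not all long peaks were separate stretches of RNA. In 7 pairs of long peaks both shared bases, 4 on the same strand and 3 on opposite strands, and when overlapping ones were counted once, 205 of the 212 were left. The same-strand pairs were the NEAT1 peaks, 2 IDs each at STX16 and NGRN, and 2 IDs in the shared span of ZBED6 and ZC3H11A. The pairs on opposite strands included NUMA1 with NUMA1-AS1 and MTSS2 with ENSG00000279569. The log2 fold changes within these 7 pairs differed by at most 0.30. Another 14 pairs joined a long peak and another listed peak, such as IL6ST (0.92) and an ID on the other strand (0.97). The largest difference over all 21 pairs was 1.15, between IRF3 (-2.60) and a shorter BCL2L12 peak (-3.75), and none of the pairs had opposite directions. Overlapping genes may share reads here, so the 2 IDs of a pair are not separate measurements.

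The 212 long peaks lay on 23 chromosomes, and they were 27 of the 106 listed peaks of chromosome 11 and 21 of the 131 of chromosome 1. By the names given from position, 190 of them were in protein-coding genes (101 lower, 89 higher) and 10 in genes of long noncoding RNAs (3 lower, 7 higher). Another 2 were in transcribed pseudogenes, and 10 had no single gene name (3 lower, 7 higher). Of 10 markers of retinal pigment epithelium looked up, KRT8 and OTX2 had a listed peak, and only that of OTX2, a transcription factor gene of this epithelium, was long (36.8-fold enriched, log2 fold change 0.99). A table of differential peaks holds no expression levels, so it cannot show whether the line carried its markers. METTL3 itself had no long peak, and its knockdown cannot be seen in these values.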

How the data were processed

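The study sequenced m6A IP and input RNA of shMET+LPS and shNC+LPS cells, 8 libraries in all. The submitters' processing notes name hg38, CASAVA, fastp 0.19.11 and MACS2 2.1.0 without roles, while the 18 columns have the form of the R package exomePeak. The deposited p-value of a peak compares IP with input, and the fold enrichment that the authors deposited is a linear ratio of IP over input. The authors also deposited the log2 fold change between the groups and, as a negative score, the log10 of the q-value of that comparison. These comparison values are theirs and were not recomputed. The p-value of the comparison was not used, nor were the log10 values of the peak, where 69 and 166 cells hold an error text. The largest listed log10 q-value is -1.3, so unchanged peaks were not analysed here. Depth per library is unknown.

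Positions were made 1-based, and long peaks had 1 block of 600 nt or more. An ID took the name of the only RefSeq gene (GRCh38.p14), the only protein-coding one, or the only one known to be on its strand that contained all its peaks or, failing that, touched them. Genes known to lie on the other strand and readthrough names were left out. Strand was known only for genes with a start-site window, so an antisense ID may carry a neighbour's name. This named 1068 of 1103 IDs. Shares have Wilson intervals and medians have order-statistic intervals. Both treat peaks as independent. The intervals were tested on simulated data.

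Named genes were the study's verification genes, the 6 largest falls and 6 largest rises at a fold enrichment of 2 or more, the 5 smallest q-values, the 5 most enriched, the 5 widest, genes with 2 long peaks, up to 6 genes per list by q-value, and peaks nearest 600 nt. Genes given as examples of position or overlap, and those whose sequence is shown, were picked after their values were seen. A pair of overlapping peaks is counted in the totals and is not reported by itself here. Not every verification gene was used here. Members and lists were chosen with earlier results of these data known. Alternatives were other length, distance, q-value, enrichment and fold limits, overlapping peaks counted once, and 1 peak per ID. Software was scipy 1.17.1, numpy 2.4.6, pandas 2.3.3 and matplotlib 3.10.9 under Python 3.11.15.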

Additional observations from a re-analysis of the deposited data

How the results depend on the processing

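Of 34 values under other settings, 26 lay inside the 95% interval of the reported value and 8 did not. With an absolute log2 fold change of 1 or more, the share of lower long peaks was 58.6% and the share near the 3′ end 36.9%. With blocks of 1000 bases or more, the median fold enrichment was 30.7, the median log2 fold change -0.996 for lower and 0.76 for higher peaks, and the share near the 3′ end 36.6%. A q-value of 0.01 or less gave a median fold enrichment of 21.1, and a distance of 1000 bases gave 20.3% near the 3′ end. Fewer peaks enter under the stricter limits; the cause was not tested further. A fold enrichment of 2 or more removed no long peak. No paired analysis was possible because each group's libraries had been combined by the authors, and no replicate could be left out for the same reason.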
